A study of Mus musculus with 6 samples.

Results

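The genes described here are 10 genes of the CXCR3 chemokine system and of the interferon gamma response: the ligand genes Cxcl9, Cxcl10 and Cxcl11, their receptor gene Cxcr3, the interferon gamma receptor genes Ifngr1 and Ifngr2, the transcription factor genes Irf1 and Irf8, and Cd274 and Ido1. They were taken by name, through the transcript accession of each array probe. Of the 10 genes, 9 had a named probe, among 22815 genes named on the array, and Cxcl11 had none. They were measured in the hearts of 6 male C57BL6 mice aged 10 weeks. Every mouse had been starved for 16 h and given 20 mg/kg lipopolysaccharide (LPS, bacterial endotoxin) into the peritoneum. The groups were 3 mice given saline and 3 given recombinant human thrombomodulin (rhTM, the soluble form of a thrombin-binding receptor of the vessel wall), in each case 3 h and 24 h after LPS, and RNA was taken at 30 h. No heart without LPS was analysed here, so every difference is rhTM against saline after LPS.

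Interferon gamma, made by natural killer cells and T cells, binds a receptor of IFNGR1 and IFNGR2 chains and activates the kinases JAK1 and JAK2. Signalling from the receptor induces IRF1, a transcription factor that then helps to switch on further target genes. Among these are the chemokines CXCL9, CXCL10 and CXCL11, which draw activated T cells and natural killer cells that carry CXCR3. CXCL10 is also induced by type I interferon and by NF-kappaB after endotoxin. PD-L1 (Cd274) and indoleamine 2,3-dioxygenase (Ido1) are interferon-induced genes that restrain T cells.

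Of the 9 genes with a probe, 8 were bright enough to be tested and 0 of the 8 changed at an adjusted p under 0.05 (limma over 14699 genes), against 5.17% of all genes tested. At an unadjusted p under 0.05 there were 2 of the 8, Ido1 and Cd274, both higher with rhTM, against 30.7% of all genes. The same 2 genes were the ones whose rhTM and saline arrays did not overlap, which held for 35.7% of all genes. The median difference of the 8 genes was -0.15 on the log2 scale, with 3 higher and 5 lower, against 0.014 for all genes tested. The sign of that median turned with slide as a block (0.33), and without saline 3 and rhTM 3 it was -0.40. Neither count stands above that of genes at large. Ido1 was well above background on all rhTM arrays but not on all saline arrays, so it entered the test through the rhTM group. For this reason each list of other genes is counted below over its genes well above background on all 6 arrays, in a fit of 13538 genes of which 4.91% were called.

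Each level is the log2 signal of a probe minus the 75th percentile of its array, and differences are rhTM minus saline with the standard error of the fit (n = 3 and 3). Between 54.8% and 62.8% of spots per array were well above background. Saline 1 and 2 were on slide 1, and saline 3 and all rhTM arrays were on slide 2, so each difference is also given against saline 3 alone, which is the value of the fit with slide as a block. Saline 3 and rhTM 3 stood apart from the other arrays of their groups. Across genes, saline 3 correlated at 0.965 with rhTM 3 and at 0.942 and 0.939 with saline 1 and 2, while rhTM 3 correlated at 0.969 and 0.970 with rhTM 1 and 2, which correlated at 0.994 with each other. Differences without those 2 arrays are therefore added, with the caveat that 53.2% of all genes were called in that fit and that slide and group then coincide. Cardiomyocyte markers were well above background on all 6 arrays in 9 of 9 cases, and 8 of the 9 lay higher with rhTM, with a median of 0.64. The calcium pump regulator Pln rose (1.35 ± 0.28, adjusted p = 0.0478), where 2.76% of all genes were called higher. Whole hearts were used, and fewer cells of a type cannot be told apart from less RNA per cell.

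**Figure D1:**
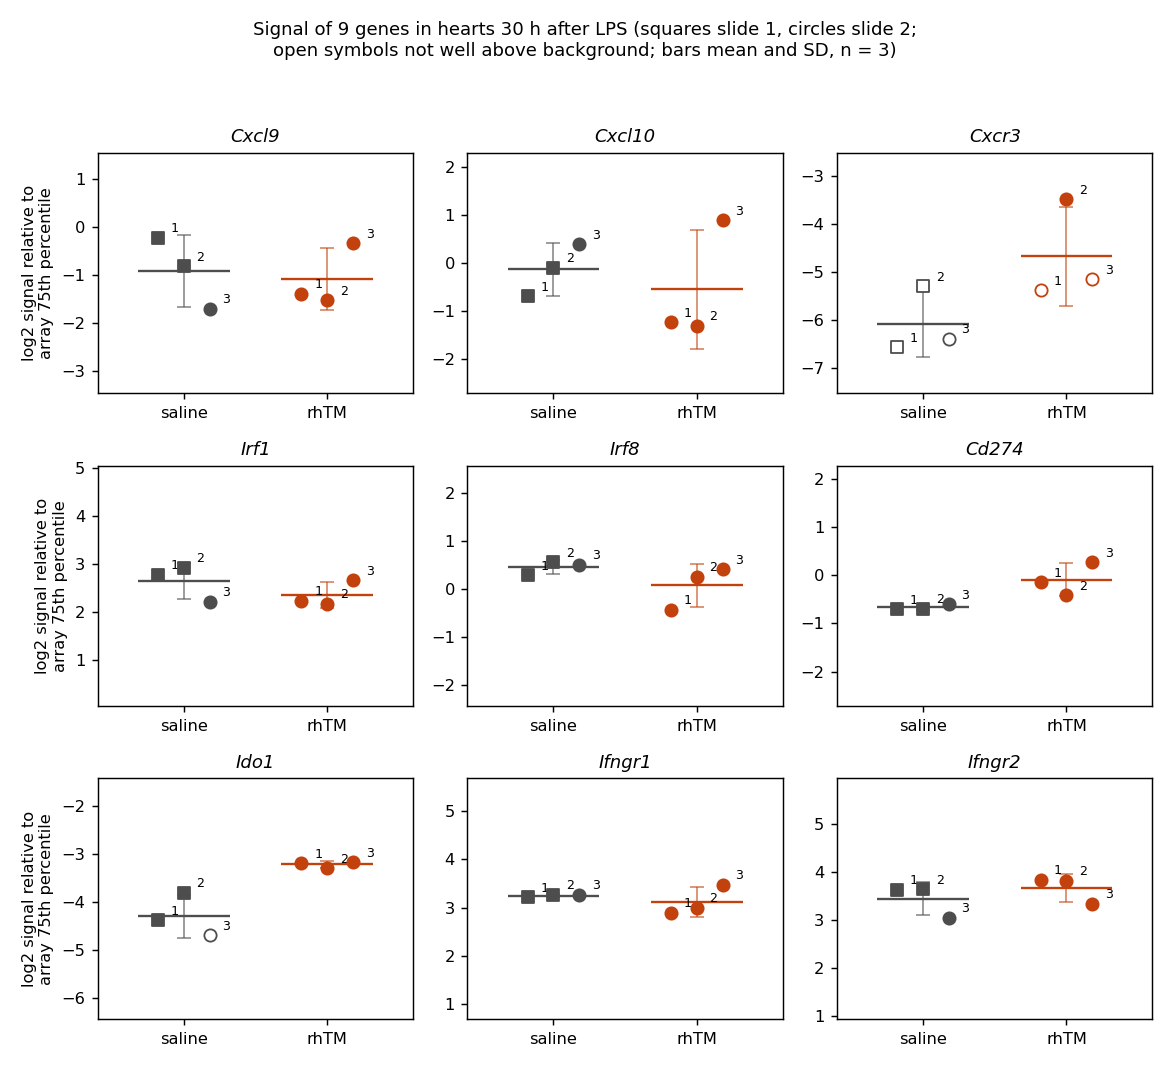
Signal of the 9 genes with a probe on each array, as log2 signal relative to the 75th percentile of the array, with the replicate number beside each point, squares for slide 1 and circles for slide 2, and bars for the mean and SD of 3 arrays. All panels span the same height; Ido1 and Cd274 are the genes tested whose groups do not overlap, and most points of Cxcr3 are open, that is, not well above background.

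The chemokine genes Cxcl9 and Cxcl10 lie close together on chromosome 5, and their promoters are shown first. The saline hearts ranked in opposite order for these genes, while among the rhTM hearts rhTM 3 was highest for both. Each window runs from 250 bases before to 50 bases after the annotated start, 5′ to 3′ on the gene's strand, from RefSeq with build GRCm38.p6. Such windows were found for 8 of the 10 genes. Capitals mark letters that match 1 of 3 motifs, searched on both strands. They are the gamma-activated site of interferon gamma target genes (TTC, any 3 bases, GAA), the interferon-stimulated response element (GAAA, any 2 bases, GAAA) and the NF-kappaB site. Of all 32851 promoter windows, 8.3%, 3.44% and 8.46% held the respective letters. A match is a string of letters and not a measured binding site.
Cxcl9, chr5:92328030-92328329, minus strand: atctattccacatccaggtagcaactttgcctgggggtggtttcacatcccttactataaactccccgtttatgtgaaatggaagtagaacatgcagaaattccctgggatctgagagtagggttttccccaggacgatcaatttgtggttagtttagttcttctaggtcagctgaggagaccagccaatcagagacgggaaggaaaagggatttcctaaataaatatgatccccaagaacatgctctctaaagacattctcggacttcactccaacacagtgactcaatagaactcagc
Cxcl10, chr5:92348840-92349139, minus strand: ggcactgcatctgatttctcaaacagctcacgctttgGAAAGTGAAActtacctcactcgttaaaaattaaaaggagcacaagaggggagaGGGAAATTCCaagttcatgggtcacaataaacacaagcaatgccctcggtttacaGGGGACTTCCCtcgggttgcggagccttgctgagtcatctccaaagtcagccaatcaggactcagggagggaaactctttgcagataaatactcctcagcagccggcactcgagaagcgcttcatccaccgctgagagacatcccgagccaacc

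The Cxcl10 window held 1 interferon-stimulated response element, 213 bases upstream of the start, and 3 NF-kappaB matches, at 159, 104 and 103 bases upstream. The last 2 of these overlap almost completely. The Cxcl9 window held none of the 3 motifs in this form.

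Irf1, a transcription factor gene induced by interferon gamma, is shown for its gamma-activated site.
Irf1, chr11:53769764-53770063, plus strand: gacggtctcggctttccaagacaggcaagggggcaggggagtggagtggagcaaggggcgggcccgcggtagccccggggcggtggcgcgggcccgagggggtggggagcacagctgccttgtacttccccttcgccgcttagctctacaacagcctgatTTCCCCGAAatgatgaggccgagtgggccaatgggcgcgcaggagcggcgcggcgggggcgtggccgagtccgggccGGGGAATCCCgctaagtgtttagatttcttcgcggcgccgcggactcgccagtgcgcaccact

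The Irf1 window had a gamma-activated site at 90 bases and an NF-kappaB match at 13 bases upstream. Irf8 had 2 gamma-activated sites, at 171 and 153 bases upstream of its first start, and Ifngr2 had an NF-kappaB match at 75 bases. The windows of Cxcr3, Cd274 and Ifngr1, and the second windows of Irf1 and Irf8, held none of these letters.

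**Figure D2:**
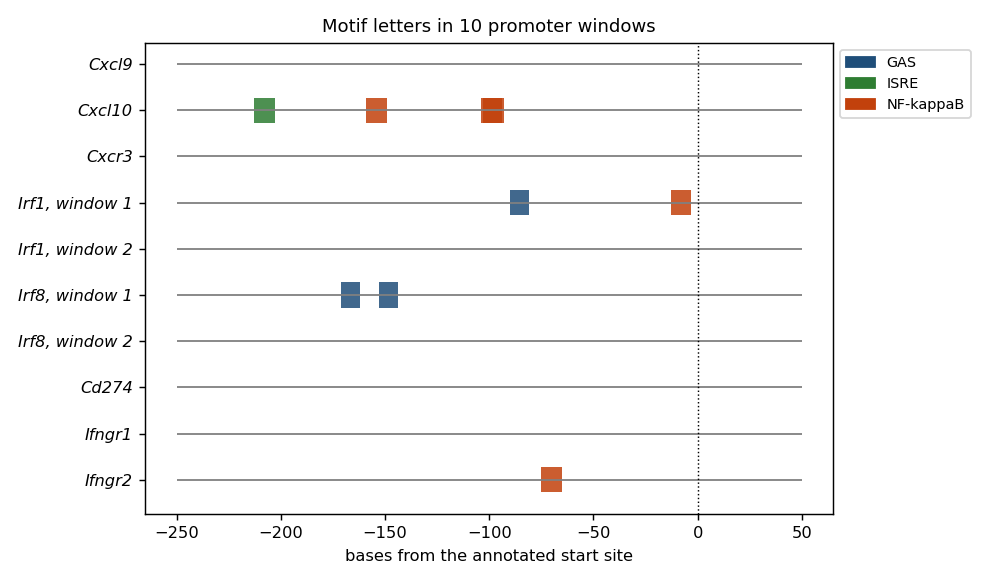
Position of motif matches in the 10 promoter windows of 8 genes, in bases from the annotated start site (dotted line), coloured by motif. Cxcl10 carries 1 interferon-stimulated response element and 3 NF-kappaB matches, the first windows of Irf1 and Irf8 carry gamma-activated sites, and 6 of the 10 windows carry no match.

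Cxcl10, the chemokine that answers both interferon and NF-kappaB, lay at -0.69, -0.10 and 0.39 in saline 1, 2 and 3. In rhTM 1, 2 and 3 it lay at -1.23, -1.31 and 0.88. Thus rhTM 1 and 2 were below every saline array and rhTM 3 was above every other array, a spread of 2.19 over the 6 hearts and the widest of the 8 tested genes. The difference was -0.41 ± 0.63 (95% interval -1.92 to 1.09, adjusted p = 0.674), an interval from 0.264 to 2.13 times the saline level. Without rhTM 3 it was -1.13 and without rhTM 2 it was -0.037, both short of the threshold. Against saline 3 it was -0.94. Without saline 3 and rhTM 3 it was -0.87 ± 0.23 (adjusted p = 0.0356; 0.0356 to 0.981 over its 17 alternatives), the single alternative in which Cxcl10 passed.

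Cxcl9, the ligand most closely tied to interferon gamma, lay at -0.22, -0.82 and -1.70 in saline 1, 2 and 3. It lay at -1.39, -1.52 and -0.34 in rhTM 1, 2 and 3. All rhTM arrays fell inside the saline range, and saline 3, the saline array with the most Cxcl10, had the least Cxcl9 of all 6. The difference was -0.17 ± 0.47 (95% interval -1.30 to 0.96, adjusted p = 0.828). Its sign turned against saline 3 (0.62), without saline 1 (0.18) and without rhTM 2 (0.050). Without saline 3 and rhTM 3 it was -0.94 ± 0.23 (adjusted p = 0.0304; 0.0102 to 0.988 over its 17 alternatives).

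Whether the 2 ligands changed unequally was tested on their log2 difference within each array. Cxcl9 minus Cxcl10 came to 0.47, -0.72 and -2.09 for the saline hearts 1, 2 and 3, and to -0.16, -0.22 and -1.22 for the rhTM hearts 1, 2 and 3. In both groups the lowest value was that of array 3. The rhTM arrays differed from saline by 0.24 (exact two-sided permutation p = 0.8, adjusted over 3 pairs 0.8; the smallest p possible is 0.1). Against saline 3 it was 1.55, and without saline 3 it was -0.41. In the deposited value table, whose baseline per probe differs between slides, it was 1.75 (exact permutation p = 0.1).

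Neutrophil markers, such as the calprotectin gene S100a8, varied over the hearts more than any other marker list set beside the chemokines. Averaged over 6 genes, their level came to 1.94, 2.92 and 4.66 for the saline hearts 1, 2 and 3, and to -0.33, -1.35 and 3.57 for the rhTM hearts 1, 2 and 3. The 2 hearts with the most Cxcl10 were thus the 2 with the most neutrophil marker signal, and the 2 with the least Cxcl10 had the least. Cxcl9 did not follow that order. Between the groups 4 of 5 neutrophil genes well above background on all 6 arrays lay lower with rhTM, and 0 passed (limma; 1 at unadjusted p under 0.05). When same-numbered hearts were matched in the fit 1 passed, the neutrophil product gene Retnlg (-4.66, adjusted p = 0.0466, and 0.00243 to 0.388 over its 17 alternatives). That fit called 599 of 14699 genes, and the labels name no pairing of hearts. The part of neutrophils in the Cxcl10 levels was not tested.

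**Figure D3:**
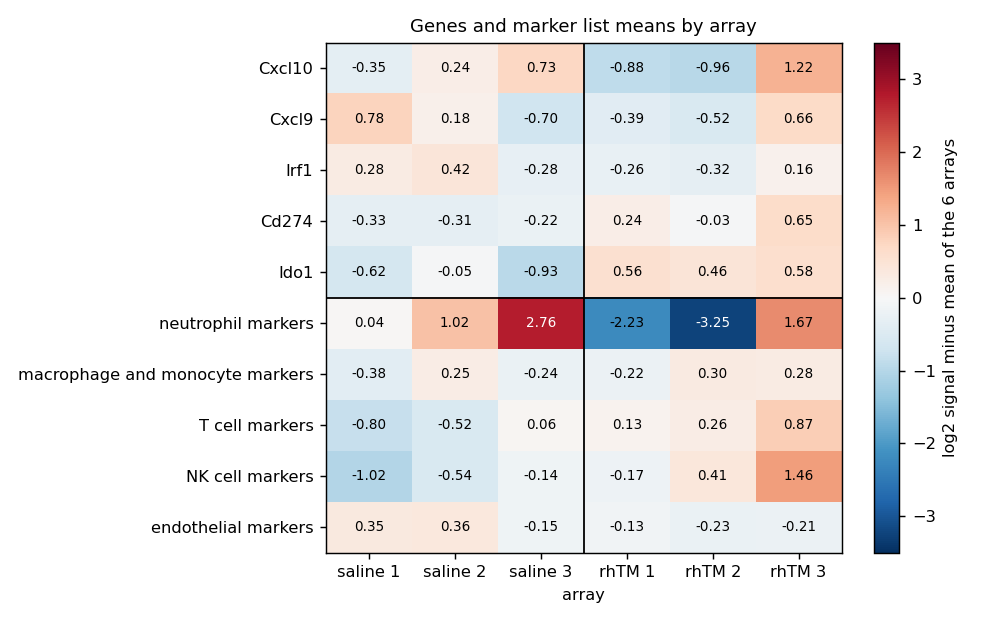
Log2 signal minus the mean of the 6 arrays, for 5 genes and for the mean of 5 marker lists, with the value printed in each cell. Cxcl10 and the neutrophil markers are both highest in saline 3 and rhTM 3, Cxcl9 is lowest in saline 3, and Ido1 and Cd274 are higher in each rhTM array than in any saline array.

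The third ligand gene, Cxcl11, is a transcribed pseudogene in the RefSeq annotation of C57BL/6J, and no level is given for it.

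Cxcr3, the receptor of these chemokines on activated T cells and natural killer cells, was barely detectable in whole heart. Its probe lay at -6.56, -5.29 and -6.39 in saline 1, 2 and 3 and at -5.38, -3.49 and -5.15 in rhTM 1, 2 and 3. It was well above background in rhTM 2 alone, so it was not tested. The other 2 rhTM hearts were not well above background, so no difference is given. The signal of T cell markers, averaged over 12 genes, ranged from -3.45 to -2.59 in saline and from -2.51 to -1.77 in rhTM hearts. That mean includes 2 genes well above background on no array and 3 tested through the rhTM group alone. The gap between the ranges thus rests in part on signal near background. Of the 12, 7 were well above background on all 6 arrays. These 7 lay higher with rhTM, with a median of 0.74 (0.13 against saline 3), and 0 passed (limma; 1 at unadjusted p under 0.05). The adhesion receptor gene Cd2, well above background in 2 of 3 saline hearts, entered the test through the rhTM group, which favours a higher call. It passed when hearts were blocked by replicate number (1.80, adjusted p = 0.0436, and 0.00118 to 0.416 over its 16 alternatives), in a fit that called 599 of 14699 genes. With slide as a block 1 passed, the costimulatory receptor gene Cd28 (1.41 against saline 3, adjusted p = 0.0397; 0.0157 to 0.400 over its 17 alternatives). The T cell genes Cd3g and Cd8a were not well above background on any array.

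Natural killer cell markers, the other CXCR3-bearing class, had a mean over 10 genes of -4.28 to -3.40 in saline and -3.43 to -1.79 in rhTM hearts, so that the groups overlapped. Of the 10, 4 were well above background on all 6 arrays, with 3 higher and 0 passing (limma; 0 at unadjusted p under 0.05), and their median was 0.61 but -0.40 against saline 3. The other 4 tested genes entered through the rhTM group. One of them, the receptor gene Klra8, differed by 2.74 ± 0.40 (adjusted p = 0.0284), a call that the choice of tested genes favours. The Klra8 probe was well above background in 1 of 3 saline hearts, and its other 2 probes differed by 1.80 and 2.30. It no longer passed with slide (adjusted p = 0.0689) or the replicate number (adjusted p = 0.0517) as a block (0.000371 to 0.155 over its 16 alternatives). The defining genes Ncr1 and Klrb1c were not well above background on any array. The part of these cells in the Cxcr3 signal was not tested.

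The gene of interferon gamma itself, Ifng, was not well above background in any of the 6 hearts, so no difference is given for the ligand of the pathway. Its receptor was clearly expressed. Ifngr1, the ligand-binding chain, lay at 3.21, 3.26 and 3.27 in saline 1, 2 and 3 and at 2.89, 3.00 and 3.48 in rhTM 1, 2 and 3. The saline hearts lay close together (SD 0.033), while rhTM hearts lay on both sides of them. The difference was -0.12 ± 0.21 (95% interval -0.63 to 0.39, adjusted p = 0.716), that is, 0.645 to 1.31 times the saline level, and -0.14 against saline 3.

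Ifngr2, the signalling chain, lay at 3.63, 3.65 and 3.05 in saline 1, 2 and 3 and at 3.84, 3.82 and 3.34 in rhTM 1, 2 and 3. Array 3 was the lowest of each group, and the groups overlapped through rhTM 3, which lay below saline 1 and 2. The difference was 0.23 ± 0.26 (95% interval -0.39 to 0.84, adjusted p = 0.564), and 0.62 against saline 3. Ifngr1 minus Ifngr2 within an array came to -0.42, -0.38 and 0.22 for the saline hearts 1, 2 and 3, and to -0.95, -0.81 and 0.14 for the rhTM hearts 1, 2 and 3. The groups overlapped, and the chains were not shown to change unequally (-0.35, exact two-sided permutation p = 0.4, adjusted over 3 pairs 0.8). The value was -0.76 against saline 3, -0.14 without saline 3 and -0.69 without rhTM 3. In the deposited value table it was -1.13, with an exact permutation p of 0.1, the smallest possible. That table has a baseline per probe that differs between slides, so this value cannot be told apart from a slide difference. Matched by replicate number, all 3 differences were below 0, and exact sign flips gave p = 0.25.

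Irf1, an activator of interferon target genes, lay at 2.78, 2.92 and 2.21 in saline 1, 2 and 3 and at 2.23, 2.17 and 2.66 in rhTM 1, 2 and 3. Saline 3 lay with rhTM 1 and 2, and rhTM 3 lay near saline 1. The difference was -0.28 ± 0.26 (95% interval -0.91 to 0.34, adjusted p = 0.479), and it turned to 0.14 against saline 3. A second, dimmer Irf1 probe differed by -0.58. Without saline 3 and rhTM 3 the brighter probe differed by -0.65 ± 0.12 (adjusted p = 0.0135; 0.00421 to 0.823 over its 17 alternatives).

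Irf8, which myeloid cells need for their development, lay at 0.29, 0.56 and 0.51 in saline 1, 2 and 3 and at -0.43, 0.26 and 0.41 in rhTM 1, 2 and 3. Of the rhTM hearts, 2 lay below every saline heart and rhTM 3 lay inside the saline range. The difference was -0.37 ± 0.26 (95% interval -1.01 to 0.26, adjusted p = 0.359), and -0.43 against saline 3. Macrophage and monocyte markers had means of 1.46 to 2.09 in saline and 1.62 to 2.15 in rhTM hearts, with 5 of 11 higher and 0 passing (limma; 2 at unadjusted p under 0.05). The chemokine receptor gene Ccr2, well above background in 1 of 3 saline hearts, was tested through the rhTM group. It passed when hearts were blocked by replicate number (2.82, adjusted p = 0.0391, and 0.00183 to 0.205 over its 16 alternatives), in a fit that called 599 of 14699 genes. Ly6c2 of the same list, well above background on all 6 arrays, went the other way without overlap of the groups (-1.38 ± 0.33, limma adjusted p = 0.0631). Dendritic cell markers had means of -3.63 to -2.26 and -2.61 to -2.30, with 2 of 4 higher and 0 passing (limma; 2 at unadjusted p under 0.05). The integrin gene Itgax, well above background in 1 of 3 saline hearts, was also tested through the rhTM group. It passed in the fit blocked by replicate number (2.48, adjusted p = 0.0462, and 0.00657 to 0.282 over its 16 alternatives). Its other probe, not well above background on any array, differed by 0.23. Zbtb46, well above background on all 6 arrays, lay lower in every rhTM heart than in any saline heart (-0.96 ± 0.23, limma adjusted p = 0.0628). Its other probe differed by -0.85. Against saline 3 the median of the 4 dendritic cell genes was -0.72. Irf1 minus Irf8 differed by 0.091 between the groups (exact two-sided permutation p = 0.8, adjusted over 3 pairs 0.8) and by 0.57 against saline 3. The smallest p possible is 0.1, so that test could not pass at 0.05.

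Cd274, which encodes the T cell inhibitory ligand PD-L1, lay at -0.71, -0.69 and -0.60 in saline 1, 2 and 3 and at -0.14, -0.41 and 0.27 in rhTM 1, 2 and 3. Every rhTM heart was above every saline heart, and the saline hearts lay close together. The difference was 0.57 ± 0.22, or 1.49-fold (95% interval 1.03-fold to 2.16-fold; unadjusted p = 0.0389, adjusted p = 0.144). It did not pass over all genes, nor in any of its 17 alternatives (adjusted p 0.0623 to 0.742). It was 0.51 against saline 3, 0.42 without saline 3 and rhTM 3, and 0.11 in the deposited value table.

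Ido1, the interferon-induced enzyme that starts the breakdown of tryptophan to kynurenine, was dim but also separated the groups. It lay at -4.38, -3.80 and -4.68 in saline 1, 2 and 3 and at -3.19, -3.29 and -3.17 in rhTM 1, 2 and 3. All 3 rhTM hearts were above all saline hearts, and saline 3 was not well above background. The difference was 1.07 ± 0.26, or 2.10-fold (95% interval 1.37-fold to 3.23-fold; unadjusted p = 0.00489, adjusted p = 0.0635), and it did not pass. With slide as a block it did, at 1.47 ± 0.26 (adjusted p = 0.0425; 0.00256 to 0.621 over its 16 alternatives), in a fit that called 5.78% of all genes. That difference is the one against saline 3 alone, the heart in which Ido1 was not well above background. Without saline 3 it also passed (0.87, adjusted p = 0.0238), but slide and group then coincide and that fit called 5814 of 14699 genes. With normexp background correction, which adds an offset of 50 to every signal, it was 0.21.

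**Figure D4:**
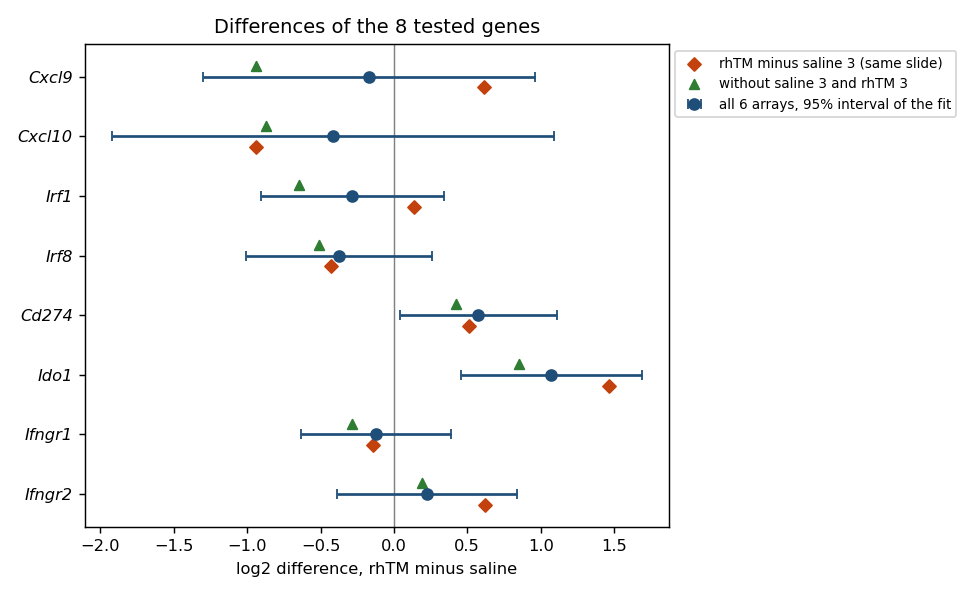
Log2 difference, rhTM minus saline, of the 8 tested genes, with the 95% interval of the fit over 6 arrays (circles), the difference against saline 3 on the same slide (diamonds) and the difference without saline 3 and rhTM 3 (triangles). The intervals of Cd274 and Ido1 lie above 0 before adjustment, and for Cxcl9 and Irf1 the diamonds and triangles lie on opposite sides of 0.

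Around these genes, 2 of 15 genes of interferon gamma signalling well above background on all 6 arrays fell, Stat3 and Jak2. In the fit of such genes 358 of 13538 were called lower. The fit of all 14699 genes called 2.42% lower and gave the values that follow, unless another fit is named. Stat3, a transcription factor of interleukin-6 and interleukin-10 signalling, fell from 4.86, 4.67 and 4.69 in saline 1, 2 and 3 to 3.09, 2.86 and 3.44 in rhTM 1, 2 and 3. The groups were far apart, by -1.61 ± 0.21 or 3.05-fold (adjusted p = 0.0248), its other probe differed by -1.38, and it also passed in both blocked fits, for slide and for replicate number. Jak2, a kinase of the interferon gamma receptor, fell by 1.01 ± 0.19 on its brighter probe (adjusted p = 0.0430), but a dimmer probe differed by 0.53. Ciita, the activator of class II antigen presentation genes, differed by 2.64 ± 0.46 (adjusted p = 0.0379); it was well above background in 1 of 3 saline hearts and entered the test through the rhTM group. Jak2 and Ciita no longer passed with slide (adjusted p = 0.0707 and 0.0764) or the replicate number (adjusted p = 0.0612 and 0.0557) as a block. Over all alternatives the adjusted p ran from 0.000272 to 0.508 for Jak2 and from 0.000288 to 0.172 for Ciita. Without rhTM 1 limma called 0 of the 14699 genes (2585 at unadjusted p under 0.05), and without saline 1 or without rhTM 2 it called 2. None of Stat3, Jak2, Ciita, Klra8, Pln, Vtcn1 and Ido2 passed in those 3 fits, and of these genes Vtcn1 alone passed without saline 2.

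Of the 15 genes 14 lay lower and 1 higher, with a median of -0.55. Jak1 differed by -0.55 ± 0.19 (adjusted p = 0.117) and the feedback inhibitor Socs1 by -0.79 ± 0.43 (adjusted p = 0.253). The phosphatase Ptpn2 differed by -0.99 ± 0.24 (adjusted p = 0.0649) and passed with slide as a block (-1.33, adjusted p = 0.0462; 0.00145 to 0.260 over its 17 alternatives).

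Interferon gamma target genes, including guanylate-binding proteins and immunoproteasome subunits, lay lower in 21 of 25 cases with a median of -0.62, and 0 passed (limma; 6 at unadjusted p under 0.05). Against saline 3 the median was -0.24. The proteasome subunit gene Psmb8 lay at 3.87, 2.45 and 1.84 in saline 1, 2 and 3 and at 1.12, 1.00 and 1.97 in rhTM 1, 2 and 3, so that rhTM 3 was above saline 3. Its difference was -1.36 ± 0.55 (adjusted p = 0.154). Genes that induce interferon gamma lay higher in 5 of 6 cases with a median of 0.77, and 0 passed (limma; 2 at unadjusted p under 0.05). Against saline 3 the median was 0.34. Among them the T and natural killer cell growth factor Il15 lay at 3.19, 3.64 and 3.70 in saline 1, 2 and 3 and at 4.37, 4.15 and 4.40 in rhTM 1, 2 and 3, a difference of 0.80 ± 0.21 (adjusted p = 0.0753). Of 8 genes of the other interferon regulatory factors and their binding proteins 0 passed (limma; 3 at unadjusted p under 0.05). Irf7 differed by -1.19 ± 0.47 (adjusted p = 0.149) and Irf3 by -0.64 ± 0.19 (adjusted p = 0.0907).

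Of 8 other immune checkpoint and kynurenine genes well above background on all 6 arrays, 7 lay higher with a median of 0.36, and 0 passed (limma; 4 at unadjusted p under 0.05). Against saline 3 the median was -0.040. A further 5 genes of the list were tested through the rhTM group alone, among them the 2 with an adjusted p under 0.05, against 2.76% of all genes called higher. The choice of tested genes favours both calls. Vtcn1, a B7-family inhibitory ligand, was well above background in all 3 rhTM hearts and in no saline heart (adjusted p = 0.00456). It was 4.33-fold higher with each saline level set to the lowest signal well above background on its array. Over its 16 alternatives the log2 difference ran from 0.74 to 4.63 and the adjusted p from 2.58e-05 to 0.174. Vtcn1 also passed in both blocked fits. Ido2, the neighbour and relative of Ido1, was likewise not well above background in saline hearts (adjusted p = 0.0330). It was 2.32-fold higher with saline levels set in the same way, and over its 16 alternatives the log2 difference ran from 0.21 to 2.09. Ido2 did not pass with slide as a block (adjusted p = 0.0650; 0.000350 to 0.701 over its 16 alternatives), and its other probe, well above background on 1 array, differed by 1.05.

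**Figure D5:**
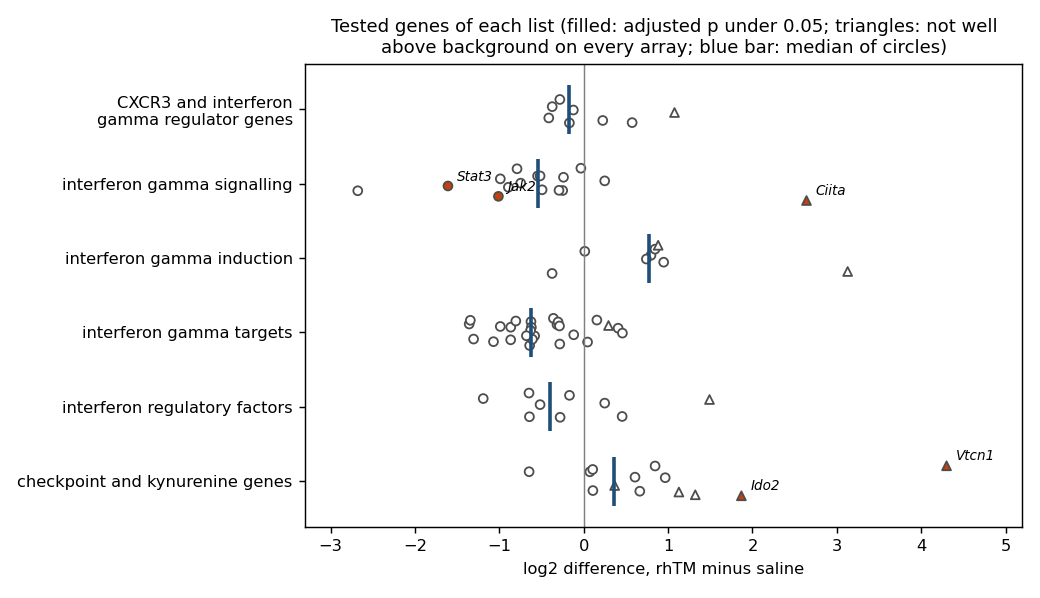
Log2 difference, rhTM minus saline, of each tested gene (points) in 6 lists, with circles for genes well above background on all 6 arrays, triangles for the others, the median of the circles as a blue bar, and genes with an adjusted p under 0.05 filled and named. Stat3 and Jak2 are filled circles on the lower side, and the filled genes on the higher side, Ciita, Ido2 and Vtcn1, are all triangles.

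Endothelial markers, of a cell type that makes CXCR3 ligands, had means of 2.18 to 2.69 in saline and 2.09 to 2.20 in rhTM hearts. Of 8 tested, 6 lay lower and 0 passed (limma, with 2 at unadjusted p under 0.05). Their median was -0.20, but -0.015 against saline 3. The host's thrombomodulin gene Thbd differed by -0.30 ± 0.23 (adjusted p = 0.387).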

How the data were processed

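RNA of 6 hearts was hybridised to 1-colour Agilent arrays, 1 per mouse. Spot intensity was read from the authors' scanner output, made with Feature Extraction 10.7.3.1 on an mm9 grid per the file headers (the submitters' processing notes name 9.1), with no scaling across arrays. A table of log2 values that the authors deposited has an unstated baseline per probe that differs between slides (SD 0.825); it was used only as an alternative. Its column medians were -0.02, -0.16 and 0.10 for saline 1 to 3 and -0.08, 0.03 and 0.09 for rhTM 1 to 3.

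Signals were log2 processed intensity minus the array's 75th percentile (394 to 732). Spots with outlier flags were left out, which removed 368 of 56605 probes. Accessions matched a RefSeq table (GRCm38.p6) for 32789 probes and not for 23448. Each gene was represented by its brightest probe, tested if well above background on all 3 arrays of a group. No spot was saturated. The test was limma (version 3.58.1, under R 4.3.3) with Benjamini-Hochberg adjustment over 14699 genes. The fit was also run on simulated data with changes larger than those of the members and no difference between slides. That run does not bear on small changes or on the slides. The number of arrays limits the precision. Alternatives covered background correction, normalisation, filter, probe choice, slide, replicate number, array weights and leaving out arrays. Normexp used the median spot signal, since no mean signal column was used here.

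All members were named, with every gene that passed and up to 4 others of each list by p; the single values of some list genes are not reported here. The members and lists were chosen with earlier results of these data known. Same-numbered arrays deviated together (correlations of 0.319, 0.235 and 0.372 across genes), but rhTM 2 deviated more with saline 1 (0.313) than with saline 2, and the labels name no shared litter or day.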

Additional observations from a re-analysis of the deposited data

How the results depend on the processing

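Of 14699 genes tested, 405 were called higher and 355 lower, 760 in all. The count was 412 with normexp, 151 with no filter on dim probes, 4520 with the deposited table, 9243 with array weights and 7820 without saline 3 and rhTM 3, an alternative chosen after seeing the data. Leaving out single arrays gave 0 to 5814 (0 without rhTM 1, with limma and 2585 at unadjusted p under 0.05; 2 without rhTM 2 and without saline 1; 58 without saline 2; 5814 without saline 3). Of the calls 53.3% were higher, against 64.3% with median centring, 66.2% with slide as a block, 87.4% with no filter (132 higher, 19 lower) and 46.2% among genes detected on every array.

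Of the 8 members tested 0 were called. The count was 1 with slide as a block (Ido1), 2 with the deposited table (Ido1 and Ifngr2), 3 with array weights (Cxcl9, Irf1 and Ido1) and 4 without saline 3 and rhTM 3 (Cxcl9, Cxcl10, Irf1 and Ido1). Leaving out single arrays gave 0 to 1, the call being Ido1 without saline 3, where slide and group coincide. Cd274, Irf8, Ifngr1, Cxcl10, Ido1 and Ifngr2 kept their sign in every alternative run. The sign turned for Cxcl9 with slide as a block (0.62) and the deposited table (0.20), with a leave-one-out range of -0.56 to 0.18, and for Irf1 with slide as a block (0.14). Ifngr1 minus Ifngr2 ranged from -0.69 to -0.14, Cxcl9 minus Cxcl10 from -0.41 to 0.87 and Irf1 minus Irf8 from -0.15 to 0.27 when single arrays were left out, and the latter was -0.059 with the mean of all probes. The cause of these changes was not tested. With the replicate number as a block 599 genes and 0 members were called, so that the pairing changed no call of a member. Of the list genes it added Lum, and Socs3, named after its values were seen, to those given above. Ido1 dropped out of the fit that required detection on every array. Signal near background limits Cxcr3, Ido1, Ido2 and Vtcn1.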
